A study of Mus musculus with 6 samples.

Results

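Gabrr2-set adipocyte nuclei are adipocyte nuclei of mouse subcutaneous white adipose tissue in which more genes of a set of 5, named Gabrr2, Vat1l, St6galnac5, Rgs7 and Chrdl1 (set D), were detected than of any of 3 rival sets of 5. The rival sets were A (Pck1, Nrg4, Nnat, Cfd, Slc1a3), B (Mageb18, Ptchd4, Pnpla3, Lhfpl2, Tenm4) and C (Peg10, Ptger3, Plagl1, Btc, Svep1). A nucleus counted as an adipocyte when at least 5 of Plin1, Adipoq, Plin4, Cidec, Lipe, Acvr1c, Adrb3 and Pde3b had at least 1 unique molecular identifier (UMI), and at least 2 genes of set D were required of a member. The members were thus chosen by the detection of 28 genes in each nucleus. They numbered 962 of 15760 adipocyte nuclei, of 61496 nuclei with 500 or more genes detected and no more than 5% of UMIs from mitochondrial genes, and of 65162 barcodes in all.

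The nuclei came from 6 single-nucleus RNA sequencing libraries, 3 of GPSM1f/f mice (flox controls, Gpsm1 flanked by loxP sites) and 3 of GPSM1ΔTreg mice (knockouts, Gpsm1 deleted, by the name of the genotype, in regulatory T cells). Both groups had been put on a high-fat diet from 7 weeks of age, for 12 weeks by the sample labels and for 5 to 12 weeks by the protocol. The Cre driver, the deleted exons, the strain and the sex are not stated in the labels. The study's title concerns a role of Gpsm1 in adipose regulatory T cells that carry CD73 and CD103. The labels give 3 mice per genotype but do not tie a library to 1 mouse, so every p-value measures the spread between these libraries.

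White adipocytes store triglyceride made from fatty acids that they take up or synthesise, release it by lipolysis under adrenergic control, and secrete hormones such as leptin and adiponectin. Single-nucleus profiles of adipose tissue commonly divide them into groups that differ in lipid-making genes and in genes of stress and signalling. Gabrr2 encodes a rho subunit of the GABA-A receptor, a chloride channel opened by GABA. St6galnac5 encodes a sialyltransferase of ganglioside synthesis, Rgs7 a protein that ends signalling by G proteins of the Gi and Go family, and Chrdl1 an antagonist of bone morphogenetic proteins (BMPs).

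The 300 bases around the RefSeq starts of 3 of the 5 set D genes, 250 before and 50 after, are shown because these genes define the nuclei and were high in them together (RefSeq, GRCm38.p6, 5′ to 3′ on the gene's strand). Capitals mark the motif CCAAT, sought on both strands with AGGTCA and TATAAA, and overlapping matches were allowed. The Gabrr2 window is chr4:33062862-33063161 on the plus strand, that of Vat1l chr8:114205390-114205689 on the plus strand, and that of Rgs7 chr1:175492496-175492795 on the minus strand.
Gabrr2: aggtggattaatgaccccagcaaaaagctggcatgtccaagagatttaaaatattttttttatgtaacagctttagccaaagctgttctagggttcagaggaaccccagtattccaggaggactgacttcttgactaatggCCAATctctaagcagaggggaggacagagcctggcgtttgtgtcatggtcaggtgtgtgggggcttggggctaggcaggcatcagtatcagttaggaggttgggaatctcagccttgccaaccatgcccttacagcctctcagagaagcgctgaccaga
Vat1l: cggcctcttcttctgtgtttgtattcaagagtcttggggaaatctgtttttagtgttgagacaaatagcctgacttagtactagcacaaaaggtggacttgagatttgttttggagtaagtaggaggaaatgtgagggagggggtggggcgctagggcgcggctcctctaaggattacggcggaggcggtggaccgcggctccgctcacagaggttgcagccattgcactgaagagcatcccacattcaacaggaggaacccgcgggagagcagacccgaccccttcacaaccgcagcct
Rgs7: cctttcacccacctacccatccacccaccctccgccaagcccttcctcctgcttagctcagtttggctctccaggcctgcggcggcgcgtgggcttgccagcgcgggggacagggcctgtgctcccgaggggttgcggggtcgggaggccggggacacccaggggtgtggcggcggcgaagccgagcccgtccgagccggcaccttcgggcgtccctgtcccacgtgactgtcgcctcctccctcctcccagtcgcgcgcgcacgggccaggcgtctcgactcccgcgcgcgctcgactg
The Gabrr2 window held 1 CCAAT, which 37.4% of 32851 promoter windows of this length hold. None of the 3 windows held AGGTCA (16.3% of windows) or TATAAA (13.6%), and those of Vat1l and Rgs7 held no CCAAT. A match is a description of letters and no evidence of binding.

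Libraries 1, 2 and 3 of the controls held 237, 325 and 151 members, and those of the knockouts 64, 72 and 113. The members' summed UMIs ran from 407278 in knockout 2 to 2815337 in control 2, and their median UMIs per nucleus were 7851, 7499 and 7238 for the controls against 7186, 5408.5 and 6635 for the knockouts. The control members were thus all deeper than the knockout members (two-sided exact permutation test, p = 0.1, the lowest value possible with 3 libraries per group). Any pair of libraries shared 24 to 44 barcodes, and no member barcode was shared. Doublets were not removed, and the highest Scrublet doublet scores, taken out in an alternative at 0.8% per 1000 barcodes, fell on 4.69 to 13.3% of members per library. Gpsm1 itself was at 9.06, 17.4 and 6.73 CPM (UMIs of a gene scaled to the summed UMIs of the same nuclei) in the control members and at 19.9, 14.7 and 13.5 in the knockout members. The groups overlapped (log2 fold change 0.41, SE 0.411, edgeR adjusted p = 0.833). Since the deletion is named for regulatory T cells, adipocyte nuclei do not check it.

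The cut that defines the members had many nuclei close to it on either side, so the rule alone does not mark off a type. Whether the nuclei form a continuous range or a type apart was not tested. Of the members, 762 (79.2%) led by 1 gene, 180 by 2, 19 by 3 and 1 by 4. Just outside the cut, set D tied with the best rival set in 2009 adipocyte nuclei with at least 2 set D genes. All 5 set D genes were detected in 570 members, 4 in 320, 3 in 57 and 2 in 15. When each nucleus was thinned to 3000 UMIs, 553 of the 884 members that deep (62.6%) were chosen again.

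Values of the 28 genes in the rule chose the members and are given as a description. Among the set D genes Vat1l had the largest ratio to the other adipocyte nuclei: it was at 339, 451 and 325 CPM in the members of controls 1, 2 and 3 and at 319.7, 260.3 and 345 in those of knockouts 1, 2 and 3. The other 14798 adipocyte nuclei held it at 79.4, 76.5 and 72.8 CPM in controls against 58.6, 33.7 and 65.3 in knockouts. Every member library was above every library of the other nuclei. Vat1l had a UMI in 59.7 to 89.2% of members per library, against 0.0691 to 0.421% of nuclei with none of the 8 adipocyte genes. Those nuclei were chosen for lacking adipocyte genes and were shallower, at medians of 1728 to 2347 UMIs per library. Their share therefore cannot measure free adipocyte RNA. Chrdl1 was at 546 to 972 CPM in members and 174 to 267 in the other adipocyte nuclei. Gabrr2 was at 378, 372 and 338 CPM in control members and at 576, 528 and 428 in knockout members. Here the knockout libraries were all higher, which as a value of a rule gene carries no test. St6galnac5 (612 to 1139 CPM) and Rgs7 (884 to 1123 CPM) overlapped between the groups.

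Adipocyte markers outside the rule were high in members as a sum, though not each of them set members apart from nuclei with no adipocyte gene. Cd36 averaged 1264 CPM in members and 1366 in those nuclei, which were chosen for lacking the 8 adipocyte genes of the rule. All 16 further adipocyte markers had UMIs, and their summed level was 40416 to 48640.0 CPM in members, 36171 to 44663 in the other adipocyte nuclei and 3071 to 7412 in nuclei with no adipocyte gene. Ghr, the growth hormone receptor, made up much of that sum, at 29266 CPM in members and 20083 in the others (means of 6 libraries). Of the 16 markers, Ghr and Npr3 were higher in members in 6 of 6 libraries and 10 were lower in 6 of 6, so the higher sum rests on Ghr. The 8 markers of brown or beige fat summed to 49.1 to 94.5 CPM, with 2 Ucp1 UMIs in all members. Of 13 markers of adipose stem and progenitor cells all were detected (1416 to 3089 CPM summed), mostly Gsn, and Pdgfra, which defines those cells, was at 7.76 CPM against 227 in nuclei with no adipocyte gene. Endothelial markers, 9 of 9 detected, summed to 64.3, 72.5 and 129 CPM in control members and 19.9, 22.1 and 53.0 in knockout members. T cell markers, 10 of 10 detected, summed to 14.3 ± 10.9 CPM in control and 50.4 ± 41.9 in knockout members (SD, n = 3), and the groups overlapped. Mesothelial cells had 1 of 7 markers with a UMI.

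Compared with the other adipocyte nuclei, the members were low in the enzymes of triglyceride and fatty acid synthesis and high in single genes such as Fbln5, Gulp1 and Aldh1a1. Since the members were chosen on the expression of these same nuclei, these differences describe the members and carry no test. Of 6658 genes outside the rule with at least 20 CPM in either class, 704 (10.6%) were higher in members in 6 of 6 libraries and 1007 (15.1%) were lower in 6 of 6. With a median ratio of at least 2-fold as well, 12 genes (0.18%) were higher and 80 (1.2%) lower, counted with symbols such as Gm and Rik that the rule for naming leaves out. The median log2 ratio of all these genes was -0.01 (log2 of CPM with 5 added, which understates low genes).

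Fbln5, an elastic fibre protein, had the highest median ratio. It was at 351, 414 and 240.1 CPM in control members and 333, 419.9 and 353 in knockout members, against 109 to 158 in the other adipocyte nuclei, 2.55-fold by the median. All 6 member values lay above all 6 others, and the groups overlapped. Aldh1a1, a retinaldehyde dehydrogenase that makes retinoic acid, was at 1899, 2658 and 2381 CPM in control members and 2779, 4078 and 4045 in knockout members, against 1254 to 1981 in the others. Its lowest member library lay within the range of the others, although members were higher within each of the 6 libraries. Other genes at or near a 2-fold excess were Adm, the vasodilator peptide adrenomedullin (9.72 to 71.2 against 5.39 to 13.3 CPM), Gulp1, an engulfment adaptor (1123 to 2156 against 478 to 1027 CPM) and Pdgfd, a platelet-derived growth factor (1004 to 1902 against 479 to 974 CPM). Hpgd, which degrades prostaglandins, was at 217 to 606 against 136 to 313 CPM, and Slc7a8, an amino acid transporter, at 217 to 573 against 146 to 212 CPM. The rule for naming also took Adam3, Sh2d4b, Scara5, Ndrg1, Lama3, Mill2, Cacnb4 and Hipk3, with medians of 1.0 to 1.2 on the log2 scale.

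Several of these genes were as high in nuclei led by set C as in members. Aldh1a1 averaged 2973 CPM in members, 2901 in set C nuclei, 1465 in set B nuclei and 1234 in set A nuclei. Slc7a8 averaged 390.3 CPM in members and 564 in set C nuclei, and Adm 33.5 and 35.7. Fbln5 was at 352 CPM in members and 259 in set C nuclei, while Adam3 was at 55.1 in members and at 9.59, 10.6 and 31.2 in nuclei led by sets C, B and A. Scara5 was also high in nuclei with no adipocyte gene (423 CPM against 97.0 in members), and the part of such RNA in its value was not tested.

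**Figure D1:**
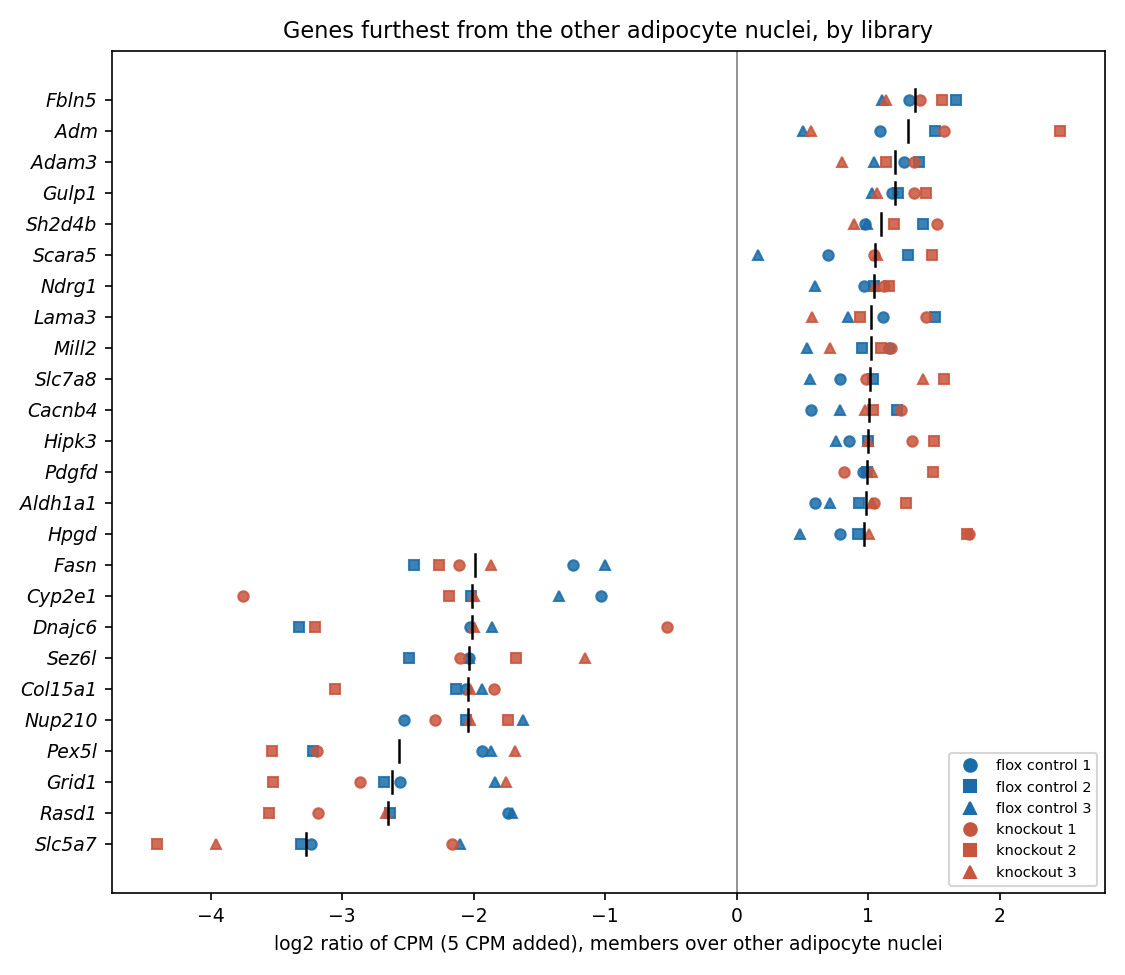
Log2 ratio of CPM (5 added) between Gabrr2-set members and the other adipocyte nuclei of the same library, for the 15 genes of highest and the 10 of lowest median ratio with 1 direction in 6 of 6 libraries. Each symbol is a library, blue for flox controls and red for knockouts, and the black bar is the median of 6. Medians ran from 1.35 for Fbln5 to -3.27 for Slc5a7, and libraries of both genotypes lie on the same side of 0 for every gene.

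The lowest genes were Slc5a7, the high-affinity choline transporter, Rasd1, a Ras-related protein induced by glucocorticoids, and Grid1, a glutamate receptor of the delta class. Slc5a7 was at 2.46 to 33.1 CPM in members and 121 to 204 in the other adipocyte nuclei, a median ratio of 9.68-fold. It averaged 339 CPM in nuclei led by set B, 126 in those led by set C and 30.5 in those led by set A, so members were lowest and set B nuclei highest. Rasd1 averaged 12.1 CPM in members, 10.4 in set C nuclei, 106 in set B nuclei and 114 in set A nuclei. Grid1 averaged 3.38 CPM in members, 4.97 in set C nuclei, 9.48 in set A nuclei and 91.3 in set B nuclei. Pex5l, Nup210, Col15a1, Sez6l, Dnajc6, Cyp2e1 and Fasn completed the 10, with medians of -2.56 to -1.99.

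The levels of several named genes changed with the lead of set D, which the rule itself sets. Adipocyte nuclei with at least 2 set D genes were classed by the lead of set D over the best rival. The classes were trailing by 1 gene, tied, leading by 1 and leading by at least 2. Fbln5 averaged 158, 244, 330.3 and 482 CPM in these classes, over the 6 libraries. Slc5a7 averaged 133, 52.9, 17.4 and 3.71 CPM in the same classes, and Agpat2 83.1, 55.3, 38.7 and 38.5. Adam3 averaged 24.5, 33.7, 54.5 and 52.0 CPM. The last class held only 7, 16 and 25 nuclei in knockouts 1, 2 and 3, and there Adam3 ran from 19.3 to 76.6 CPM by library. Whether Agpat2 or Adam3 levels off beyond a lead of 1 therefore cannot be read from these means. Pparg (1766, 1651, 1582 and 1616 CPM) and Lpl, lipoprotein lipase (1264, 1234, 1209 and 1422 CPM), had no single direction over the 4 classes.

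Triglyceride synthesis was the list furthest below the other adipocyte nuclei. Of its 12 genes of at least 20 CPM, 8 were lower in 6 of 6 libraries, against 15.1% of all genes, and 1 was higher. The list also holds Pck1 of set A and Pnpla3 of set B, left out of these counts, and Pnpla3 is in the de novo lipogenesis list too. The rule favours nuclei in which these were not detected. How far it thereby lowers genes that vary with them was not tested. The list's median log2 ratio was -0.85, against -0.01 for all genes. Acsl1, which activates long-chain fatty acids, was at 1061, 797 and 1541 CPM in control members and 884, 523 and 714 in knockout members, against 2596 to 3577 in the other adipocyte nuclei. No library overlapped, and the median ratio was 3.92-fold. Gpd1, which supplies the glycerol backbone, was at 34.3 to 89.0 CPM in members and 141 to 213 in the others. Agpat2, an acyltransferase of the glycerol backbone, was at 28.2 to 45.6 against 91.7 to 151 CPM. Dgat1 and Dgat2, which add the last fatty acid, were at 48.0 to 105 against 169 to 216 CPM, and at 105 to 288 against 288 to 572 CPM. Agpat3 went the other way, at a mean of 120.0 CPM in members and 91.7 in the others.

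Genes of de novo lipogenesis were low with them: 10 of 12 were lower in 6 of 6 libraries, none was higher in 6 of 6, and the median log2 ratio was -0.68. Fasn, the fatty acid synthase, was at 8.16, 6.39 and 12.0 CPM in control members and 1.66, 2.46 and 1.04 in knockout members, against 17.0 to 57.5 in the others. The knockout values of Fasn rest on 1 UMI in each library, and the control values on 18, 18 and 16 UMIs. Insig1, a target and brake of the sterol-regulated factor Srebf1, was at 24.6 to 70.3 against 76.0 to 247 CPM. Srebf1 was at 21.8 to 39.4 against 59.5 to 89.4 CPM, and the carbohydrate-sensing factor Mlxipl averaged 93.1 against 153. Of 17 genes of fatty acid uptake and oxidation 12 were lower in 6 of 6 and none higher, with a median of -0.30. Cd36, the fatty acid transporter, was at 1123 to 1461 against 1763 to 2102 CPM.

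Low lipid-making genes were shared with set C nuclei. Acsl1 averaged 3417 CPM in set A nuclei, 3499 in set B nuclei and 516 in set C nuclei, against 919.9 in members. Agpat2 averaged 119, 156, 29.4 and 38.5 CPM in the same order, and Gpd1 179.9, 185, 30.8 and 53.1. For these 3 genes the members lay below nuclei led by sets A and B and above those led by set C.

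**Figure D2:**
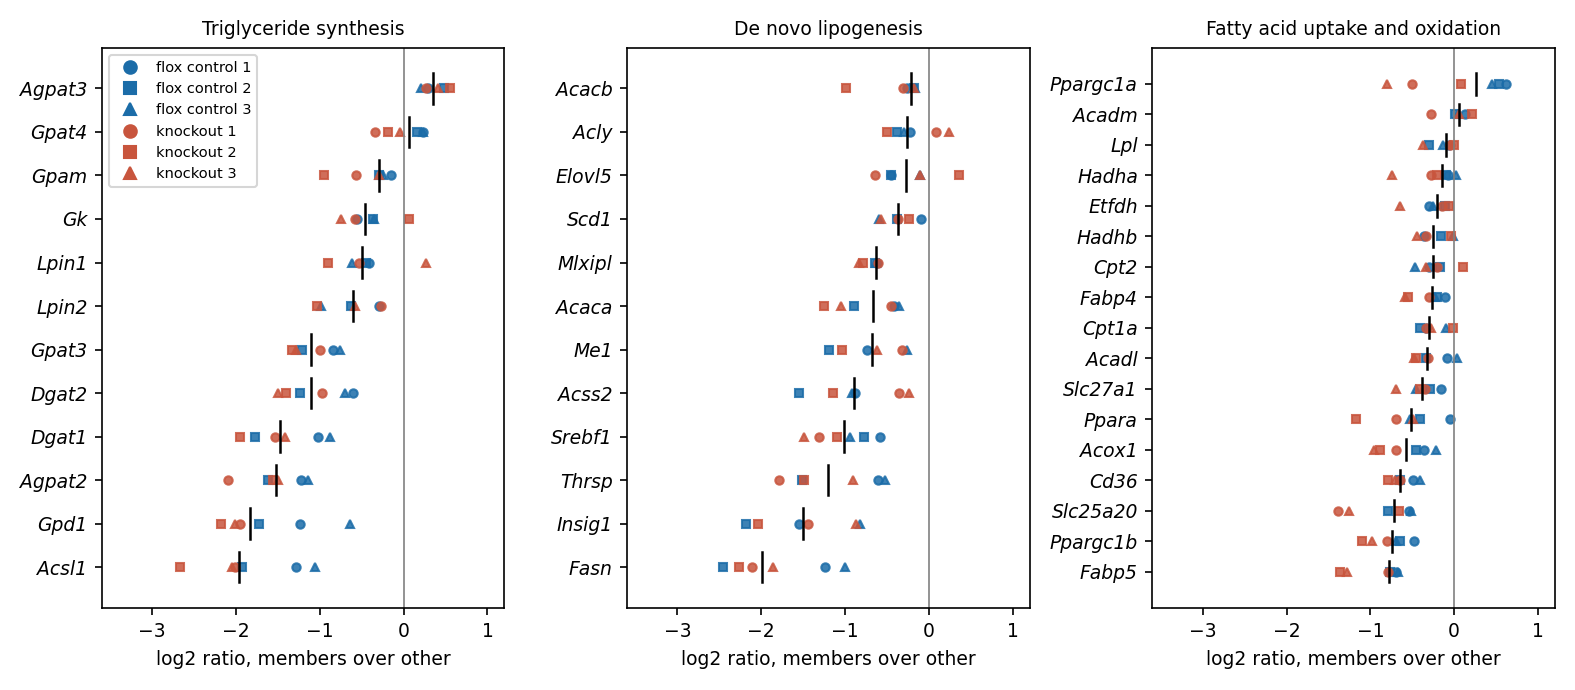
Log2 ratio of CPM (5 added), Gabrr2-set members over the other adipocyte nuclei of the same library, for list genes of at least 20 CPM outside the rule. Each symbol is a library (blue flox control, red knockout) and the bar is the median of 6. The symbols of Acsl1, Gpd1, Agpat2 and Dgat1 all lie left of 0 with medians of -1.97 to -1.48, while those of Agpat3 all lie right of 0.

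Of 9 lipolysis genes 3 were lower in 6 of 6 libraries and 1 was higher, against 15.1% and 10.6% of all genes. The list's median log2 ratio was -0.15, and Ptger3 of set C was left out as a gene of the rule. Pnpla2, the first lipase of triglyceride breakdown, averaged 181 CPM in members and 187 in the others, while Mgll, the last, averaged 575 against 842 and was lower in 6 of 6. Adora1, the adenosine receptor that restrains lipolysis, was at 36.7, 25.6 and 46.4 CPM in control members and 33.1, 17.2 and 32.2 in knockout members. In the other adipocyte nuclei it was at 58.5 to 84.7 CPM, above every member library. Npr3, the clearance receptor for natriuretic peptides, was higher in members in 6 of 6 (3224 against 2651 CPM).

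Of 9 secreted adipocyte factors 6 were lower in 6 of 6 libraries and 2 were higher, against 15.1% and 10.6% of all genes. Adipoq, and Cfd and Nrg4 of set A, are in this list too and were left out as genes of the rule. The rule favours nuclei in which Cfd and Nrg4 were not detected. Igf1, insulin-like growth factor 1, averaged 189 CPM in members against 298 in the others and was among the lower ones. Nampt (191 against 148) and Angptl4, an inhibitor of lipoprotein lipase (434 against 319.9), were the higher ones. Lep, encoding leptin, overlapped, at 349 to 614 against 435 to 573 CPM.

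The signalling families of the set D genes had no common direction in members. In 6 of 6 libraries 10.6% of all genes were higher and 15.1% lower, and the GABA and RGS lists hold only 3 and 4 measured genes. Of the 12 BMP genes measured besides Chrdl1, Bmp3 (183 against 99.1 CPM on average), the receptor Bmpr2 (258 against 220.1) and the extracellular regulator Bmper (298 against 216) were higher in 6 of 6, and Id3, a BMP target, was lower (63.1 against 97.4). Of 3 GABA genes besides Gabrr2, the GABA transporter Slc6a13 (41.3 against 112) and the GABA-degrading Abat (27.1 against 38.6) were lower in 6 of 6. None of 7 sialyltransferase and ganglioside genes besides St6galnac5 had 1 direction in 6 of 6, and of 4 RGS genes besides Rgs7, Gnb5, the partner of Rgs7, and Rgs7bp were lower.

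Among genes of insulin action, the receptors Insr (745 against 668 CPM) and Igf1r (136 against 88.8) and the inhibitory adaptor Grb14 (632 against 386) were higher in members in 6 of 6, and 3 were lower, among them Hk2 (102 against 172) and Pik3cb (130.0 against 219), out of 17. Among all genes 10.6% were higher and 15.1% lower, the shares against which these counts, and those of the adipogenic factors and matrix genes that follow, are to be read, and each of these lists had members in both directions. Of 20 adipogenic transcription factors, Ebf1 (8069 against 5836 CPM), Tcf7l2 (1361 against 953), Zbtb16 (2246 against 1902) and Klf9 (228 against 178) were higher in 6 of 6 and 5 were lower. Pparg, the main regulator of adipocyte identity, was among the lower at a median log2 ratio of -0.13. Of 24 matrix genes, 5 were higher and 6 lower. Slit3, a guidance ligand, averaged 3854 against 2735 CPM and was higher in 6 of 6.

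Members made up a smaller share of adipocyte nuclei in the knockout libraries. The share was 9.18%, 10.4% and 4.80% for controls 1, 2 and 3 against 4.39%, 2.48% and 4.46% for knockouts 1, 2 and 3. The means were 8.11% ± 2.93 and 3.78% ± 1.13 (SD, n = 3), the groups did not overlap, and the exact two-sided permutation p was 0.1, the smallest possible. Control 3 was close to the knockouts: its 95% Clopper-Pearson interval, 4.08 to 5.60%, overlapped those of knockouts 1 (3.40 to 5.57%) and 3 (3.69 to 5.34%). These intervals cover counting error only. Of all nuclei that passed the limits, members made up 2.36% ± 0.90 and 0.80% ± 0.267 (SD, n = 3).

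The share depends on the rival sets, and these differed between the genotypes. Sets B and C went the other way from set A. The mean number of set A genes detected per adipocyte nucleus was 3.68 ± 0.154 in controls and 4.37 ± 0.0725 in knockouts, and set A led in 30.4% ± 7.40 and 63.7% ± 6.18 of adipocyte nuclei (SD, n = 3, both exact p = 0.1). For set B the mean was 3.29 ± 0.221 and 2.73 ± 0.229 (exact p = 0.1), and set B led in 23.6% ± 2.06 and 8.80% ± 1.55, set C in 3.96% ± 1.49 and 1.75% ± 0.785 (exact p = 0.1 each). For set D the mean was 2.71 ± 0.463 and 2.54 ± 0.199 (exact p = 0.6), and at 3000 UMIs per nucleus it was 2.0 ± 0.112 and 1.96 ± 0.0793 (exact p = 0.8). Nuclei with at least 2 set D genes, whatever sets A, B and C held, were 80.1% ± 12.9 and 79.5% ± 4.58 (exact p = 0.9). Fewer nuclei of this kind and more set A genes in the same nuclei cannot be told apart by the share. The groups overlapped when at least 3 or at least 4 set D genes were asked for (exact p = 0.3 each) and without the highest Scrublet scores or with set D ahead by at least 2 genes (exact p = 0.2 each).

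**Figure D3:**
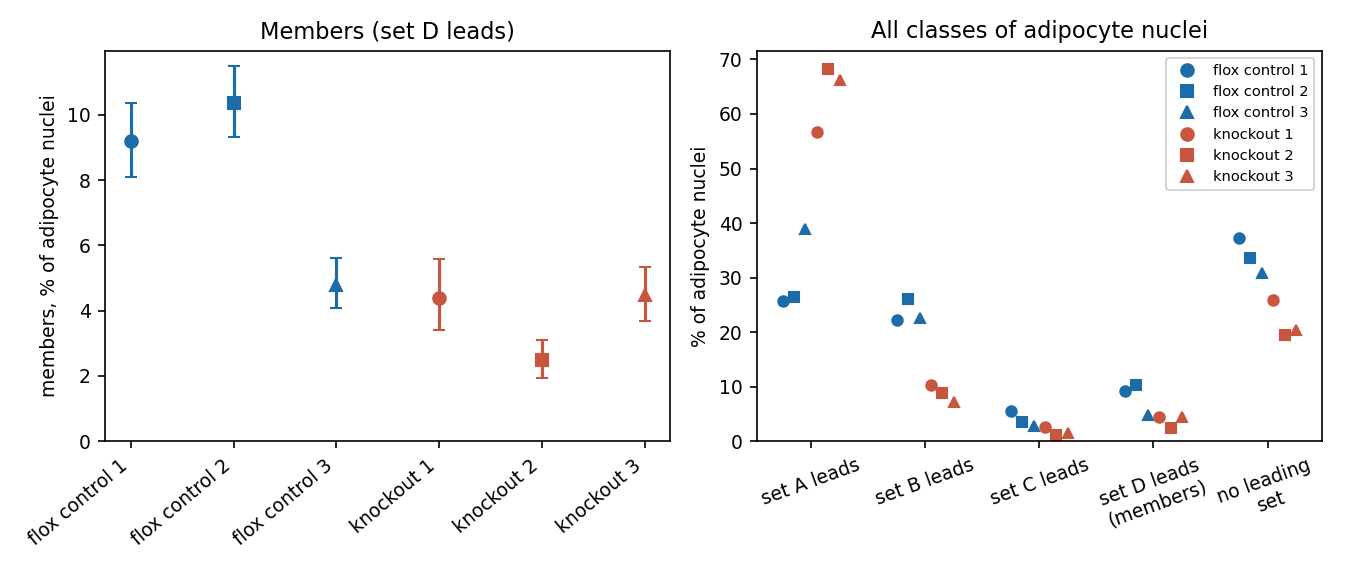
Left, Gabrr2-set members as a percentage of adipocyte nuclei in each library, with 95% Clopper-Pearson intervals that cover counting error only. Right, the percentage of adipocyte nuclei in which each gene set led, or none did, with 1 symbol per library (blue flox control, red knockout). Control 3 at 4.80% lies next to knockouts 1 and 3 at 4.39% and 4.46%, and set A led in 63.7% of knockout against 30.4% of control adipocyte nuclei on average.

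Within the members few genes differed between the genotypes. Of 9148 genes outside the rule tested with edgeR on summed counts, 10 (0.109%) passed an adjusted p of 0.05, 6 higher in the knockout (0.0656%) and 4 lower (0.0437%). The count of genes with an unadjusted p under 0.05 was 756, 1298 genes (14.2%) did not overlap between the groups, and the median log2 fold change was 0.01. DESeq2 called 24 higher and 17 lower, the first 10 among them. Members chosen after thinning to 3000 UMIs gave 15 genes, of which 2 were among the 10. At least 7 adipocyte genes kept 5 of the 10, removal of nuclei with B cell UMIs 6, and set D ahead by at least 2 genes 0. This last setting left 7, 16 and 25 members in knockouts 1, 2 and 3 and only 3389 genes with enough counts to test. Leaving out a library changed the count: 3, 1 and 21 genes passed without controls 1, 2 and 3, and 5, 1 and 3 without knockouts 1, 2 and 3. Of these, 3, 1 and 8, and 1, 1 and 1, were among the 10, and Ctnna3 was in each of the 6 fits. Without nuclei of the highest Scrublet scores 3 passed, all lower.

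Ctnna3, which encodes alpha-T-catenin, a cell junction protein, had the smallest adjusted p (ENSMUSG00000060843, chr10:63430098-65003667, plus strand, GENCODE vM21 on mm10). It was at 316, 291 and 295 CPM in control members and 103, 103 and 119 in knockout members. The groups did not overlap, at 301 ± 13.6 and 108 ± 9.55 (SD, n = 3), with a log2 fold change of -1.48 (SE 0.134, edgeR adjusted p = 0.000955). In knockout 2, 40.5% of its 42 UMIs came from 1 nucleus, and 11.1 to 20.3% of knockout members had a UMI against 33.8 to 35.7% of control members. The other adipocyte nuclei showed a log2 fold change of -1.27 (edgeR adjusted p = 0.0552), and the difference between the classes was -0.24 (SE 0.156, edgeR adjusted p = 0.846). Members chosen after thinning to 3000 UMIs gave -0.78 (edgeR adjusted p = 0.138), and members in which set D led by 2 or more genes -1.65 (edgeR adjusted p = 0.0759).

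Zfp385b, a zinc finger gene (ENSMUSG00000027016, chr2:77410634-77819639, minus strand), was at 51.7, 71.4 and 44.9 CPM in control members and 13.3, 14.7 and 14.5 in knockout members, a log2 fold change of -2.01 (SE 0.280, edgeR adjusted p = 0.0209). The groups did not overlap, and knockouts 1, 2 and 3 held 8, 6 and 14 UMIs. Pawr, a pro-apoptotic regulator, was at 22.7, 30.9 and 38.1 CPM in control members and 0, 4.91 and 2.08 in knockout members, the last from 0, 2 and 2 UMIs. In control 3, 68.6% of its UMIs came from 1 nucleus. Ldb2, a cofactor of LIM-domain factors, was at 19.9, 38.7 and 37.4 CPM and at 3.31, 2.46 and 2.08, from 2, 1 and 2 UMIs in the knockouts. In control 1, 56.8% of its UMIs came from 1 nucleus, and its level in nuclei with no adipocyte gene was 394 CPM. Pawr and Ldb2 had log2 fold changes of -3.85 (SE 0.542) and -3.62 (SE 0.500), and both passed (edgeR adjusted p = 0.0209 each). The summed endothelial markers given above were also lower in knockout members. Without nuclei that held 2 or more endothelial UMIs, Ldb2 was not among the genes with enough counts to test. The part of endothelial RNA in its value was not tested. Samd4, an RNA-binding regulator of translation, at 406, 299 and 291 against 181, 187 and 186 CPM, did not pass (log2 fold change -0.87, edgeR adjusted p = 0.0718).

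Grb10, an adaptor that restrains signalling of the insulin receptor (ENSMUSG00000020176, chr11:11930508-12038683, minus strand), was at 82.0, 61.8 and 79.3 CPM in control members and 129, 155 and 162 in knockout members. It rose without overlap, by 0.99 on the log2 scale (SE 0.163, edgeR adjusted p = 0.048). In the other adipocyte nuclei its log2 fold change was 0.58 (edgeR adjusted p = 0.102), and the difference of 0.39 did not pass (edgeR adjusted p = 0.536). Fgf14, an intracellular factor that modulates sodium channels (ENSMUSG00000025551, chr14:123977907-124677127, minus strand), was at 19.0, 15.6 and 26.9 against 51.3, 78.6 and 55.1 CPM. It rose by 1.57 (SE 0.256, edgeR adjusted p = 0.0469), with 58.1% of its UMIs in 1 nucleus in knockout 1. Removal of the highest Scrublet scores ended both calls (edgeR adjusted p = 0.0873 for Grb10 and 0.0673 for Fgf14).

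The other 4 genes that rose are genes of B cells: Cd79b of the antigen receptor, the light chain constant region Igkc, and the factors Ikzf3 and Pou2f2. Igkc was at 1.36, 0.355 and 3.74 CPM in control members and 23.2, 19.6 and 43.6 in knockout members (log2 fold change 4.31, SE 0.569, edgeR adjusted p = 0.0209). Cd79b had 0, 0 and 2 UMIs in control members and 7, 9 and 17 in knockout members. In the other adipocyte nuclei the log2 fold changes were 2.83 for Igkc, 2.39 for Ikzf3 and 2.26 for Cd79b. None of them passed (edgeR adjusted p = 0.163, 0.149 and 0.258). The difference between the classes did not pass for these genes either (edgeR adjusted p = 0.756, 0.837 and 0.395 in the same order). For Pou2f2 it passed, at 2.98 (edgeR adjusted p = 0.00666). A summed list of 8 B cell markers, Ebf1 left out as adipocytes express it, was at 30.4, 12.8 and 75.5 CPM in control members and 154, 184 and 361 in knockout members. The same list was at 214 to 1127 CPM in control and 1705 to 5375 in knockout nuclei with no adipocyte gene. Members with 2 or more UMIs of these markers were 3.38, 1.54 and 9.27% for controls against 14.1, 8.33 and 13.3% for knockouts, so the groups overlapped. Among the other adipocyte nuclei such nuclei were 14.3, 20.1 and 19.8% for controls against 20.2, 9.84 and 13.1% for knockouts. Without the members that held 2 or more such UMIs none of the 4 genes had enough counts to be tested, and 6 genes were higher and 12 lower. Removal of such nuclei selects on the genes themselves, and the part of B cell RNA in their values was not tested otherwise.

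**Figure D4:**
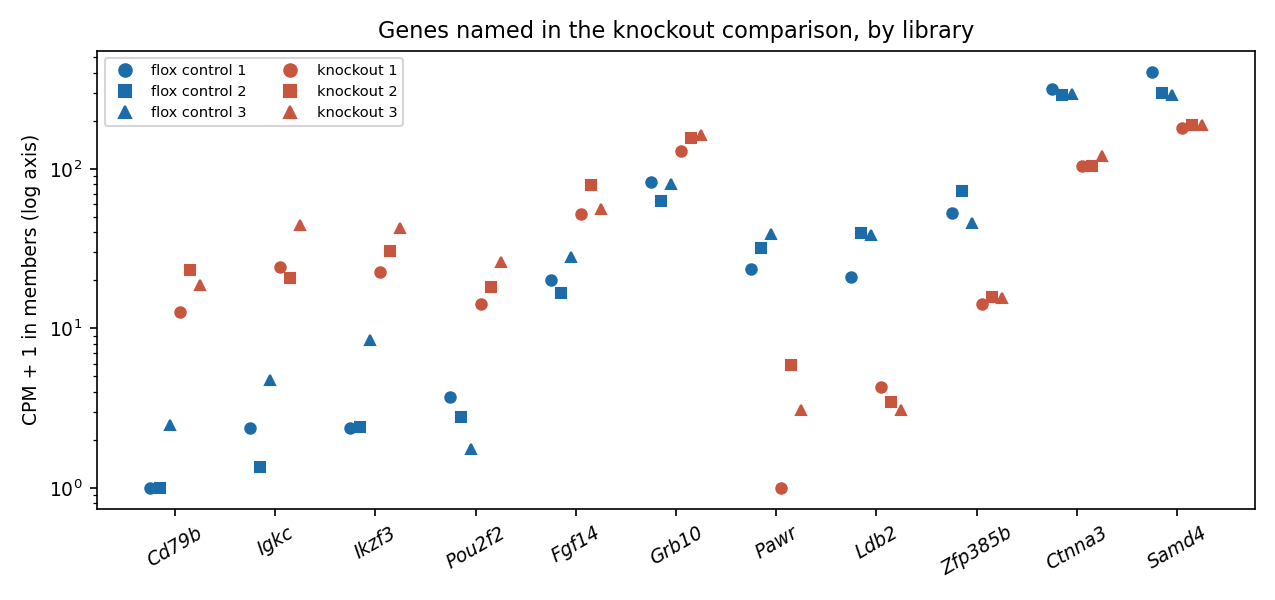
CPM plus 1 (log axis) in Gabrr2-set members of each library, blue for flox controls and red for knockouts, for the 10 genes that passed and Samd4, which did not. Each symbol is a library. The groups are apart for all 11 genes, at 291 to 316 against 103 to 119 CPM for Ctnna3, and the B cell genes Cd79b, Igkc, Ikzf3 and Pou2f2 lie near the bottom of the axis in controls.

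None of the 273 genes tested in the 23 pathway lists passed in edgeR. Of them 38 (13.9%) had an unadjusted p under 0.05, against 8.26% of all genes, and DESeq2 passed 3 of them, Slc2a3, Ryr2 and Slit2. In the edgeR fit Slc2a3, a glucose transporter, had a log2 fold change of 1.31 (edgeR adjusted p = 0.0919), Ryr2, a calcium release channel, -1.44 (0.309) and Slit2, a guidance ligand, -1.55 (0.164). The list of lowest median was thermogenic and futile cycling at -0.85 (6 of 6 genes negative, 4 with an unadjusted p under 0.05). Ion channels followed at -0.46 (10 of 12 negative, 6 unadjusted) and RGS proteins at -0.39 (4 of 4 negative, 0 unadjusted). Of the 18 thermogenic list genes only 6 were tested, and Ryr2 and Kcnk3 are in both that list and the ion channel list. The lists of triglyceride synthesis and fatty acid uptake and oxidation had medians of -0.30 (9 of 13 genes negative) and -0.22 (14 of 17 negative), against 0.01 for all genes. Nuclear-encoded oxidative phosphorylation had a median of 0.00 (11 of 22 negative). These are counts and medians without a test of the list.

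Genes of the adenosine pathway, of which CD73 (Nt5e) makes adenosine, showed no difference past the threshold. Nt5e (1.5 to 8.31 CPM in members), Adora2a and Adora2b were too low to be tested. Adora1 had a log2 fold change of -0.31 (SE 0.298, edgeR adjusted p = 0.827) and Adk, which removes adenosine, -0.08 (SE 0.128, adjusted p = 0.919). Lep was at 433, 437 and 349 against 426, 511 and 614 CPM (log2 fold change 0.33, SE 0.158, edgeR adjusted p = 0.627), and Adipoq, a gene of the rule, at 151, 124 and 117 against 96.1, 184 and 105 CPM.

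The knockout effect differed between members and other adipocyte nuclei for 22 of 15311 genes outside the rule (0.144%), 11 with a higher and 11 with a lower log2 fold change in members. A single fit tested this as an interaction, with each library as a block, and 1045 genes had an unadjusted p under 0.05. In the other adipocyte nuclei alone 50 of 16759 genes passed (0.298%). Leaving out a library gave 26, 42 and 80 genes without controls 1, 2 and 3 and 11, 38 and 14 without knockouts 1, 2 and 3.

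Ebf2, a factor of adipocyte and beige fat identity, had the smallest adjusted p. It was at 212, 225 and 264 CPM in control members and 152, 236 and 213 in knockout members, while the other adipocyte nuclei held 109, 139 and 219 for controls against 203, 239 and 271 for knockouts. The difference of log2 fold changes was -0.91 (SE 0.148, edgeR adjusted p = 0.00646). Ces1f, a carboxylesterase, was at 53.5, 33.7 and 42.6 against 46.4, 58.9 and 28.0 CPM in members, and at 33.0, 29.7 and 48.9 against 106, 86.7 and 78.5 in the others. Its difference was -1.37 (SE 0.235, edgeR adjusted p = 0.00666). In members the groups overlapped for both genes; in the other nuclei they overlapped for Ebf2 and not for Ces1f.

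Both are high in nuclei led by set A, which made up more of the adipocyte nuclei in every knockout library: Ebf2 averaged 337 CPM in set A nuclei and 71.3 in set B nuclei, and Ces1f 116 and 19.6. Pck1, itself in set A and so only described, was at 483, 346 and 454 against 260.0, 297 and 383 CPM in members and at 498, 492 and 645 against 932, 1045 and 1162 in the others. When set B nuclei replaced the other adipocyte nuclei, 1 gene passed, the difference was 0.04 for Ebf2 and -0.36 for Ces1f, and neither passed (edgeR adjusted p = 1.0 and 0.941). The members exclude nuclei led by set A in every library, so the makeup of the other nuclei and the effect within a nucleus cannot be told apart here.

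Trarg1, a regulator of glucose transporter trafficking, had a difference of -0.80 (SE 0.141, edgeR adjusted p = 0.00666), with 261, 173 and 234 against 197, 147 and 126 CPM in members and 278, 203 and 288 against 331, 286 and 308 in the others. Pltp, a phospholipid transfer protein, was at 90.2, 73.5 and 88.2 CPM in control members and 51.3, 34.4 and 31.2 in knockout members, and at 79.8 to 107 and 75.4 to 114 in the others. Its difference was -0.98 (SE 0.187, edgeR adjusted p = 0.0145), and the log2 fold change within members alone, -1.14, did not pass (edgeR adjusted p = 0.0825). Gask1b, encoding a Golgi-associated protein, was at 240.2, 243 and 179 against 345, 498 and 296 CPM in members and 138 to 196 against 154 to 166 in the others (difference 0.78, SE 0.139, edgeR adjusted p = 0.00666). Pltp and Gask1b did not overlap between the groups in members and overlapped in the other nuclei. None of the 22 genes passed with set B nuclei as the other class, where the differences were -0.54 for Trarg1, -1.01 for Pltp and 0.17 for Gask1b (edgeR adjusted p = 0.466, 0.154 and 0.979). None passed with set D ahead by at least 2 genes either, and there Gask1b turned sign (-0.33), as did Pou2f2 (-0.36). That setting left only 7, 16 and 25 members in knockouts 1, 2 and 3, so it cannot separate a lost effect from lost counts.

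Cdc42ep3 had a difference of 1.02, Eda2r, a receptor of the tumour necrosis factor family, one of 3.32 that rests on 1 to 17 UMIs per library, and Pou2f2, described above, one of 2.98. Ppargc1a, a coactivator of mitochondrial genes, was among the 22 at -1.07 (SE 0.208, edgeR adjusted p = 0.0148). Ppargc1a and Ebf2 were the 2 genes of the pathway lists among the 22.

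**Figure D5:**
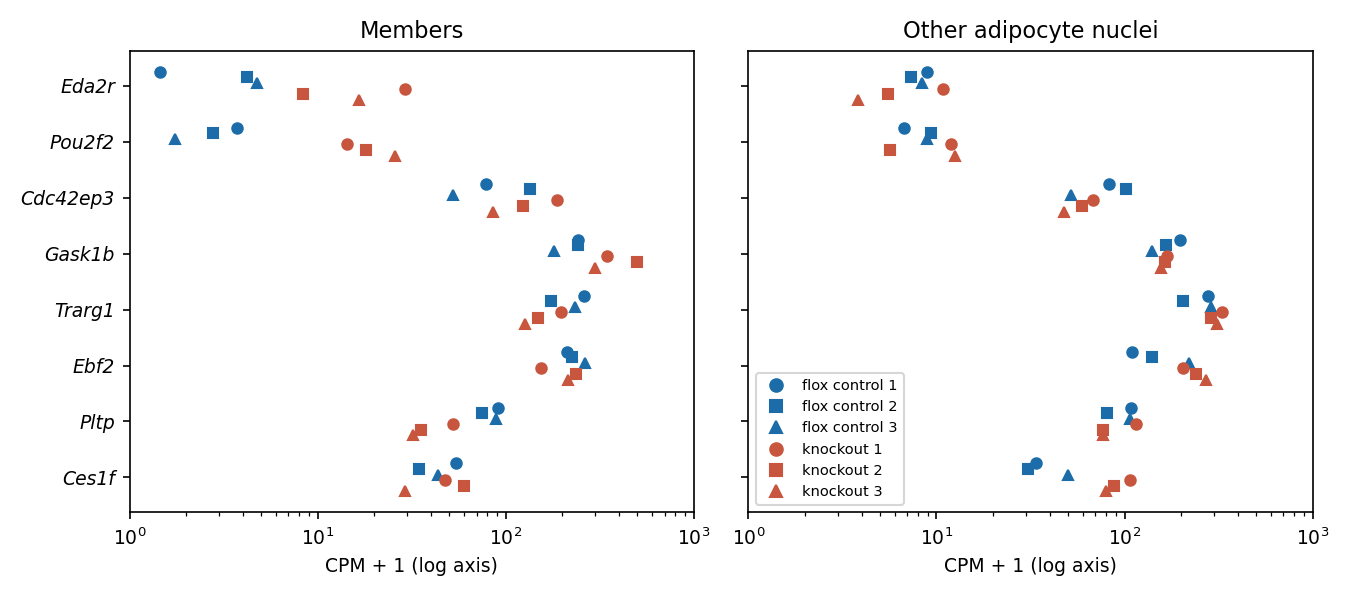
CPM plus 1 (log axis) of the 8 genes of smallest adjusted p for a different knockout effect, in Gabrr2-set members (left) and other adipocyte nuclei (right). Each symbol is a library, blue for flox controls and red for knockouts. Pltp is at 31.2 to 51.3 CPM in knockout and 73.5 to 90.2 in control members and mixed on the right, while Ces1f is apart on the right, 78.5 to 106 against 29.7 to 48.9 CPM, and mixed on the left.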

How the data were processed

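The data were 6 single-nucleus RNA libraries (10x Genomics 3′ chemistry on sorted nuclei of subcutaneous fat), and the authors deposited 1 matrix of UMI counts per library, made with Cell Ranger 7.1 per the submitters' processing notes, which name the builds mm10 and GRCh38. Whether intronic reads were counted and how barcodes were called is not given in the sources used here. Library totals ran from 38857282 to 55342903 UMIs.

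Barcodes entered with 500 or more genes and no more than 5% of UMIs mitochondrial, and members were chosen by the rule given in the report. The members and the gene lists were chosen with earlier results of these data known. UMIs were summed per library and class. Knockout was compared with control by edgeR 4.0.16 in R 4.3.3 with limma 3.58.1, on a fit of the members alone. The comparison used a quasi-likelihood test, TMM, a filter on low counts and Benjamini-Hochberg adjustment over all genes tested, threshold 0.05. The 28 genes of the rule stayed in the fit and the adjustment where they passed the filter, and were left out of the counts. The difference between classes was an interaction with each library as a block. DESeq2 1.42.0 was an alternative. Scripts in Python 3.11.15 used scanpy 1.11.5. The edgeR fits were tested on simulated data. Shares were compared by exact permutation of the 6 libraries.

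Genes were named by rule: in the knockout comparison those past the threshold whose groups did not overlap, filled up to 5 per direction by smallest p, the 8 interaction genes of smallest adjusted p, and the 15 highest and 10 lowest median ratios of members to other adipocyte nuclei with 1 direction in 6 of 6 libraries. Further members of the lists, such as Acsl1, Gpd1, Agpat2 and Slc2a3, were chosen after their values were seen. Gene positions came from GENCODE vM21, which matched 99.61% of genes. Promoters came from RefSeq, which held 3 of the 5 set D genes. Libraries share numbers 1 to 3 across the genotypes, but nothing in the labels says that a number pairs mice. Some genes of the lists are counted but not reported here by name.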

Additional observations from a re-analysis of the deposited data

Results flagged for a closer look

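The effect of the knockout differed between Gabrr2-set members and other adipocyte nuclei for 22 genes, by the interaction term in edgeR at an adjusted p of 0.05. The difference of log2 fold changes, members minus others, was -0.91 for Ebf2, -0.80 for Trarg1, -1.37 for Ces1f and -0.98 for Pltp. It was 0.78 for Gask1b, 1.02 for Cdc42ep3, 3.32 for Eda2r and 2.98 for Pou2f2. Pou2f2 rests on 1 to 24 UMIs per library in members. The summed B cell markers without Ebf1 were at 62.9, 86.8 and 129.8 CPM in other adipocyte nuclei of controls and at 227, 112 and 288 in those of knockouts, where the groups overlapped.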

How the results depend on the processing

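Of the alternatives to the 10 genes called in members (6 higher, 4 lower), DESeq2 gave 24 and 17, no filter on low counts 144 and 167, and nuclei of 3000 to 20000 UMIs 16 and 14. The number higher became 13 with at least 7 adipocyte genes, 0 without the highest Scrublet scores (724 at an unadjusted p under 0.05), 0 with set D ahead by at least 2 (272 unadjusted), 13 without nuclei with endothelial UMIs and 12 with the trend over gene span removed. The number lower became 1 with set D ahead by at least 2 and 12 without nuclei with B cell UMIs. With set D ahead by at least 2, only 3389 genes could be tested in members, against 9148 in the main fit. Leaving out 1 library gave 0 to 11 higher and 1 to 10 lower.

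For the interaction (11 higher, 11 lower), the number higher was 46 with no filter, 0 with set D ahead by at least 2 and 21 with the span trend removed. The number lower was 44 with no filter, 3 with DESeq2, 17 at 3000 to 20000 UMIs, 20 with sets counted on 3000 UMIs, 19 with set D ahead by at least 2 and 28 without nuclei with B cell UMIs. Set B nuclei as the other class gave 1 and 0 (730 unadjusted). Leaving out 1 library gave 5 to 45 higher and 5 to 35 lower.

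The difference in share, -4.34 points, was -1.07 with set D ahead by at least 2 and -0.677 for set D of at least 2 whatever the other sets held, and ran from -5.995 to -3.211 without 1 library. Signs turned for Adk (0.043 with the span trend removed), Adipoq (-0.384 to 0.0449 without 1 library), the difference of Pou2f2 (-0.355) and of Gask1b (-0.328) with set D ahead by at least 2, and that of Ebf2 (0.043 against set B nuclei). The cause was not tested. The alternatives on set D of at least 4, set D ahead by 2, removal of B cell or endothelial nuclei, the span trend and set B as the other class were chosen after seeing the data.

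With the replicate block 8 genes were higher and 4 lower in members, 6 of them among the 10, and the share was lower in 3 of 3 pairs (exact p = 0.25, the smallest possible). Deviations of same-numbered libraries correlated at -0.0226, 0.127 and 0.0666, so the numbers were not taken to pair the libraries. Knockout members summed to 407278 to 962739 UMIs, against 1337127 to 2815337 in controls, which limits what could be called for low genes.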
